A study of Mus musculus with 71 samples.

Results

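The effect of losing miR-92a-1 from mouse embryos that already lack miR-17, miR-20a and miR-18a was measured in the embryo that remained after heart and tail bud had been cut away. Embryos labelled Delta_17_18_92 (Δ17,18,92; 2 libraries) were compared with embryos labelled Delta_17_18 (Δ17,18; 3 libraries). Both genotypes carry a deletion of miR-17 and miR-20a and one of miR-18a, and Δ17,18,92 also one of miR-92a-1. The members were chosen by genotype and tissue labels and are 5 of the 71 libraries of the series, and 5 of its 23 libraries of the rest of the embryo. Δ17,18,92 thus keeps only miR-19a and miR-19b-1 of the cluster, and Δ17,18 keeps these and miR-92a-1. All embryos were C57BL/6 and were collected at embryonic day 9.5 with 20 to 22 somites. For comparison, Delta_92 (Δ92, lacking miR-92a-1 alone; 3 libraries) was set against wild type (3 libraries) in the same tissue, and Δ17,18,92 against Δ17,18 in tail bud and heart (3 libraries each). The replicates are described as biological, but whether a library held 1 embryo or a pool is not given in the sources used here.

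MicroRNAs guide Argonaute proteins to sites, mostly in the 3′ untranslated region (3′ UTR) of messenger RNAs, that pair with bases 2 to 8 of the microRNA, its seed, and the bound messages are destabilised or less translated. The miR-17~92 cluster is processed from the primary transcript of the host gene Mir17hg and holds hairpins of several seed families, which therefore act on different sets of messages. The miR-92 family also has members outside the cluster, among them a second copy of miR-92a on the X chromosome and miR-25 in an intron of Mcm7, and integrin α5 is among its best known targets in endothelium.

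The mature sequences show what was removed and what was left; they are credited to RefSeq (GRCm38.p6), and capitals mark the seed.
miR-17-5p: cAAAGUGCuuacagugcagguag
miR-20a-5p: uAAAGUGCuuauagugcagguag
miR-18a-5p: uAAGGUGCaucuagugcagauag
miR-92a-3p: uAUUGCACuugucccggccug
miR-19a-3p: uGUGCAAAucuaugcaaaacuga
miR-19b-3p: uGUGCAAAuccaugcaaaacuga
miR-17-5p, miR-20a-5p and miR-18a-5p are absent from both genotypes by label, miR-92a-3p of the cluster is absent only from Δ17,18,92, and the miR-19 pair is present in both. The cluster copy of miR-92a-3p lies at chr14:115044476-115044496 on the plus strand (GRCm38.p6), the last mature microRNA of the cluster, downstream of miR-19b-3p. The following family members are encoded elsewhere, were deleted in neither genotype, and share the miR-92a seed.
miR-92b-3p: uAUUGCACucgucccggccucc
miR-25-3p: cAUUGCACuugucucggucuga
miR-32-5p: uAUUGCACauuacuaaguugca
miR-363-3p: aAUUGCACgguauccaucugua
The X-chromosomal copy of miR-92a-3p has the same mature sequence as the deleted one. The libraries counted reads per gene of long RNA, all 6 hairpin genes of the cluster listed in the table were at 0 in all 71 libraries, and no mature microRNA was measured.

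A match was searched on the transcript strand of the longest protein-coding 3′ UTR of each gene (GENCODE annotation of GRCm38). An 8mer for miR-92 is GTGCAATA, and a 7mer-m8 is GTGCAAT without the final A, so a site counted as an 8mer was not counted again as a 7mer-m8. The other 8mers searched, on the transcript strand only, were GCACTTTA for miR-17, GCACCTTA for miR-18 and TTTGCACA for miR-19. Of the 14380 tested genes with a 3′ UTR, 394 (2.74%) held at least 1 such 8mer and 689 (4.79%) only a 7mer-m8. A match describes the letters of the annotated 3′ UTR and is not a measured binding site. The 8mers of genes on which the results below turn are shown with flanking bases, capitals marking the 8mer and the window given by its GRCm38 position.
Fndc3b, chr3:27418559-27418584, minus strand: ttaagagggcattGTGCAATAgttag
Man2a1, chr17:64752610-64752635, plus strand: tccttggtttaacGTGCAATAactaa
Rpl15, chr14:18268871-18268896, minus strand: atgtagaagttaaGTGCAATAattga
Itga5, chr15:103344310-103344335, minus strand: aactctgttgcaaGTGCAATAaaccc
Itga8, chr2:12107701-12107726, minus strand: aacaaaatgttatGTGCAATAtttta
Itgav, chr2:83806402-83806427, plus strand: tcattgttcttaaGTGCAATAtaaca
Dkk3, chr7:112118169-112118194, minus strand: gtcactggtagatGTGCAATAgaaat
Gpr180, chr14:118162772-118162797, plus strand: agtgaatggagaaGTGCAATAggatc
Bcl2l11, chr2:128162436-128162461, plus strand: tgccactgtacctGTGCAATActgct
The first 8 genes rose, as described below, and Bcl2l11 is shown as a gene with the same 8 bases that did not pass the test in the rest of the embryo.

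Library totals over the rest of the embryo ran from 16944224 counts, in Δ17,18 replicate 3, to 25479249, in Δ17,18 replicate 2. The 4 replicate pairs within the 2 groups all differed by more than counting noise (chi-square per degree of freedom from 2.52 to 7.57), and each library was counted as 1 sample. Y-linked transcripts separated the libraries by a pattern that the labels do not give. Both Δ17,18,92 libraries held Ddx3y at 82.5 and 76.9 CPM (counts scaled to a common library total), against 0.298, 73.4 and 0.118 CPM in Δ17,18, whose replicates 1 and 3 held Xist at 2530 and 2390 CPM instead. The genotype comparison is therefore partly one between Y-expressing and Xist-expressing embryos. The counts of all genes and of 8mer genes that changed are given also with a covariate for the Y-linked level. They are given too for the 3 Y-expressing libraries of the 2 groups alone, in a fit that kept all libraries of the other genotypes, Xist-expressing ones included. That last fit sets 2 Δ17,18,92 libraries against 1 Δ17,18 library, replicate 2, which is assumed to vary like the other genotypes of the tissue, so a call lost in it may follow from the smaller number of libraries or from the sex pattern, and these cannot be told apart. For the gene lists and looked-up genes the part of the sex pattern was not tested as a count, and calls of named genes lost under either fit are named. Markers of the parts cut away were low but present: the summed level of 16 cardiomyocyte markers was 485 and 707 CPM in Δ17,18,92 and 348 to 475 CPM in Δ17,18, against 39996 to 40811 CPM in Δ17,18,92 hearts and 38394 to 41422 CPM in Δ17,18 hearts. The 15 tail bud markers summed to 267 to 279 CPM in Δ17,18,92 and 264 to 293 CPM in Δ17,18, against 1823 to 1976 CPM in Δ17,18,92 tail buds and 1857 to 1936 CPM in Δ17,18 tail buds.

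With miR-92a-1 lost on the Δ17,18 background more genes were higher than lower, and genes with a miR-92 8mer were among those that rose and not among those that fell. Of 17512 genes tested, 441 (2.52%) changed in Δ17,18,92 against Δ17,18, with 332 (1.90%) higher and 109 (0.622%) lower (edgeR quasi-likelihood test, Benjamini-Hochberg adjusted p under 0.05). The median size of the log2 fold change among the 441 was 0.32, regardless of sign. In all 441 genes both Δ17,18,92 libraries lay beyond all 3 Δ17,18 libraries, a separation that 15.9% of all tested genes showed upward and 17.2% downward. The count differed between settings: it was 99 without Δ17,18,92 replicate 2, 268 without Δ17,18 replicate 2, 274 with the Y-linked covariate and 127 in the Y-expressing libraries alone. Of the 441 genes, all 441 kept their sign with the covariate, and 264 stayed past the threshold.

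Among the 394 tested genes with a miR-92 8mer, 82 rose and 0 fell, that is 20.8% higher against 1.90% of all genes tested. Their median log2 fold change was 0.12, and 76.4% of them lay above 0, against a median of −0.01 and 46.1% above 0 among the 9617 genes with no match of the miR-17, miR-18, miR-19 or miR-92 seeds. The 66 genes whose 3′ UTR held 2 or more miR-92 matches, at least 1 of them an 8mer, had a median of 0.22, with 25 higher and 0 lower. The 328 genes with a single 8mer had a median of 0.11, with 57 higher and 0 lower. Genes with only a 7mer-m8 came next, with a median of 0.05, 42 higher and 4 lower of 689. The distributions thus stood in the order of the number and length of the matches.

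The seeds that both genotypes share the state of showed no such displacement. Genes with an 8mer but no miR-92 match had medians of −0.01 for miR-17 (544 genes, 4 higher and 2 lower), −0.02 for miR-18 (209 genes, 1 higher and 3 lower) and −0.0016 for miR-19 (726 genes, 13 higher and 6 lower). Where the 8mer of miR-92 stood without a match of the other 3 families, the median was 0.14 over 204 genes, with 49 higher and 0 lower. Read from the other side, 82 of the 327 genes that rose and have a 3′ UTR held the miR-92 8mer (25.1%), and 42 more held only a 7mer-m8 (12.8%). None of the 106 genes that fell and have a 3′ UTR held an 8mer. The number of 8mer genes that rose was 40 without Δ17,18,92 replicate 2, 64 without Δ17,18 replicate 2, 60 with the Y-linked covariate and 38 in the Y-expressing libraries alone, and 0 fell in each of these. The number of 8mer genes that fell was 1 with DESeq2, 1 with only the 5 libraries compared, 1 with the replicate block and 3 without a filter on low counts.

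**Figure D1:**
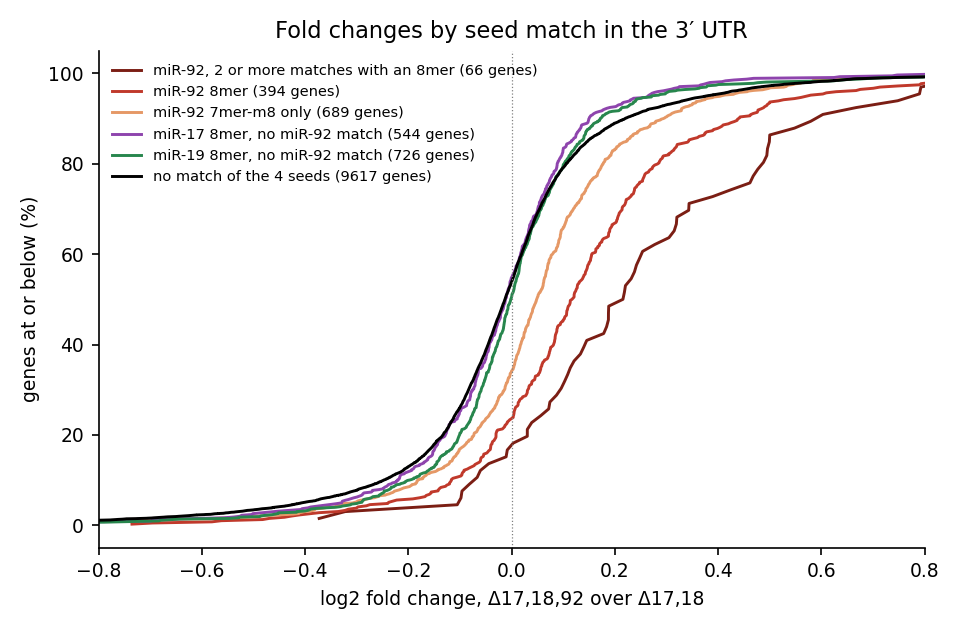
Cumulative share of genes (y axis, percent) at or below a log2 fold change of Δ17,18,92 over Δ17,18 (x axis), in the rest of the embryo, by seed match in the 3′ UTR; each line is 1 class, with its number of genes in the legend. The miR-92 lines lie to the right, with medians of 0.22, 0.12 and 0.05 for 2 or more matches with an 8mer, any 8mer and 7mer-m8 only, while the miR-17, miR-19 and no-match lines cross the middle near 0.

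The same displacement was seen library by library. A site score was computed as the mean log2 CPM of the 8mer genes minus that of genes lacking any of the 4 seed matches, set relative to the wild-type mean. It was 0.148 and 0.134 in the Δ17,18,92 libraries, against −0.0252 to −0.0166 in the Δ17,18 libraries. In Δ92 it averaged 0.0826 ± 0.0186, against 0 ± 0.0155 in wild type (SD, n = 3 each). Both Δ17,18,92 libraries lay above every library of every other genotype, those of the full knockout included, which lacks the whole cluster and ran from 0.113 to 0.127. Among genotypes that keep miR-92a-1, no library exceeded 0.0327.

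**Figure D2:**
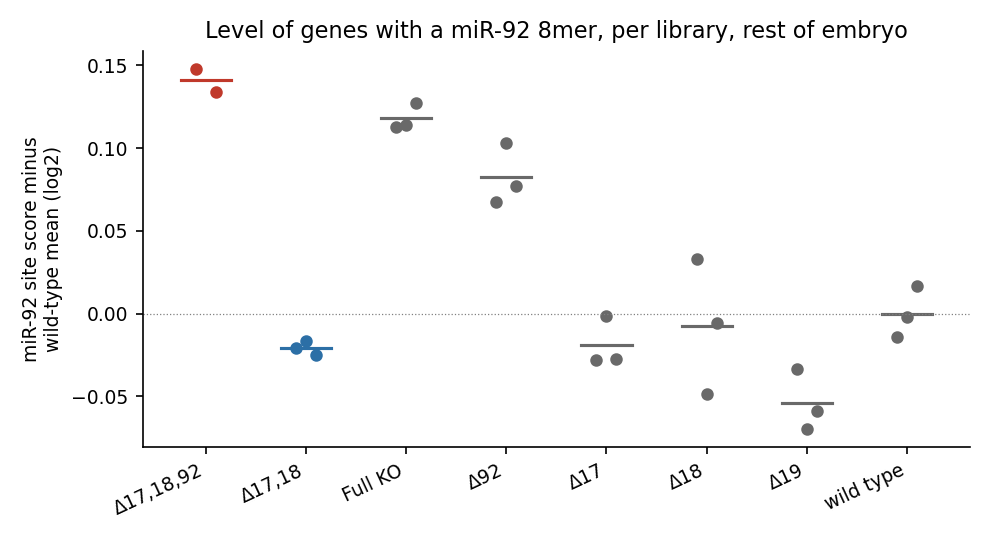
The miR-92 site score of each library of the rest of the embryo (points; y axis, log2 units relative to the wild-type mean) by genotype, with group means as bars. Δ17,18,92 stands at 0.148 and 0.134, Δ17,18 between −0.0252 and −0.0166, and the other genotypes without miR-92a-1 (full knockout and Δ92) lie above those that keep it.

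The gene with the smallest p was Fndc3b, which encodes a fibronectin type III domain protein of the endoplasmic reticulum. It stood at 148 and 151 CPM in Δ17,18,92, against 85.4, 87.6 and 86.1 CPM in Δ17,18. The groups were far apart relative to their spread, and the log2 fold change was 0.79 ± 0.05 (SE; 1.73-fold, edgeR adjusted p = 4.75e-13). Man2a1, a Golgi mannosidase that trims N-linked glycans, had 148 and 150 CPM in Δ17,18,92 and 94.9, 89.9 and 97.5 CPM in Δ17,18. It rose by 0.67 ± 0.05 (adjusted p = 7.12e-10). Both genes hold an 8mer and further 7mer-m8 matches for miR-92.

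Rpl15, a protein of the large ribosomal subunit, had 101 and 107 CPM in Δ17,18,92 and 73.6, 70.5 and 74.3 CPM in Δ17,18 (log2 fold change 0.52 ± 0.05, edgeR adjusted p = 5.25e-09). Ribosomal protein genes have many processed pseudogenes, and how reads shared with such copies were counted is not given in the sources used here. Gpr180, a membrane protein of the G protein-coupled receptor class, had 32.4 and 34.8 CPM in Δ17,18,92 and 23.3, 18.8 and 19.5 CPM in Δ17,18 (0.71 ± 0.08, adjusted p = 6.84e-07). In neither gene did a library of one group reach the other. In wild type Gpr180 stood at 27.2, 28.3 and 27.5 CPM and Rpl15 at 84.6, 81.2 and 79 CPM, each between the groups compared.

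Of the integrin subunits, the receptors through which cells hold the extracellular matrix, the 3 with a miR-92 8mer all rose. Itga5, which pairs with the β1 subunit as a fibronectin receptor, stood at 144 and 157 CPM in Δ17,18,92 and 100, 100 and 103 CPM in Δ17,18 (log2 fold change 0.57 ± 0.05, edgeR adjusted p = 5.40e-09). Itga8, which also pairs with β1 and is required for kidney development, stood at 47.7 and 48.2 CPM in Δ17,18,92 and 31.2, 28.2 and 29.2 CPM in Δ17,18 (0.70 ± 0.07, adjusted p = 2.48e-07). Itgav, the partner of several β subunits, stood at 125 and 120 CPM in Δ17,18,92 and 84.0, 87.6 and 79.8 CPM in Δ17,18 (0.55 ± 0.06, adjusted p = 9.44e-07). The other integrin genes were looked up after these values had been seen. Of 24 tested integrin subunit genes 8 rose and 0 fell, with a median of 0.30, against 1.90% higher and a median of −0.01 over all genes tested, but 3 of the 8 are the increases that prompted the search. The 5 without an 8mer were Itgb1 (0.33 ± 0.05), Itga3 (0.33 ± 0.07), Itga9 (0.28 ± 0.04), Itgb5 (0.24 ± 0.05) and Itga6 (0.19 ± 0.04).

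The remaining named 8mer genes encode secreted proteins, a kinase and a membrane protein. Dkk3, a secreted glycoprotein of the Dickkopf family, had 23.7 and 28.6 CPM in Δ17,18,92 and 15.5, 13.0 and 11.6 CPM in Δ17,18. Its log2 fold change of 0.97 ± 0.10 (edgeR adjusted p = 3.85e-07) was the largest among the 82. Pkdcc, a secreted tyrosine kinase that acts in skeletal development, rose by 0.41 ± 0.05 (adjusted p = 1.77e-06). The kinase gene Hipk3 rose by 0.42 ± 0.05 (3.65e-06), and the tetraspan membrane protein gene Lhfpl2, whose 3′ UTR holds 2 8mers, by 0.50 ± 0.06 (1.85e-06). The 82 ranged from 0.15 to 0.97 with a median of 0.34, and each of the 12 with the smallest p stayed past the threshold in all 12 alternative fits.

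**Figure D3:**
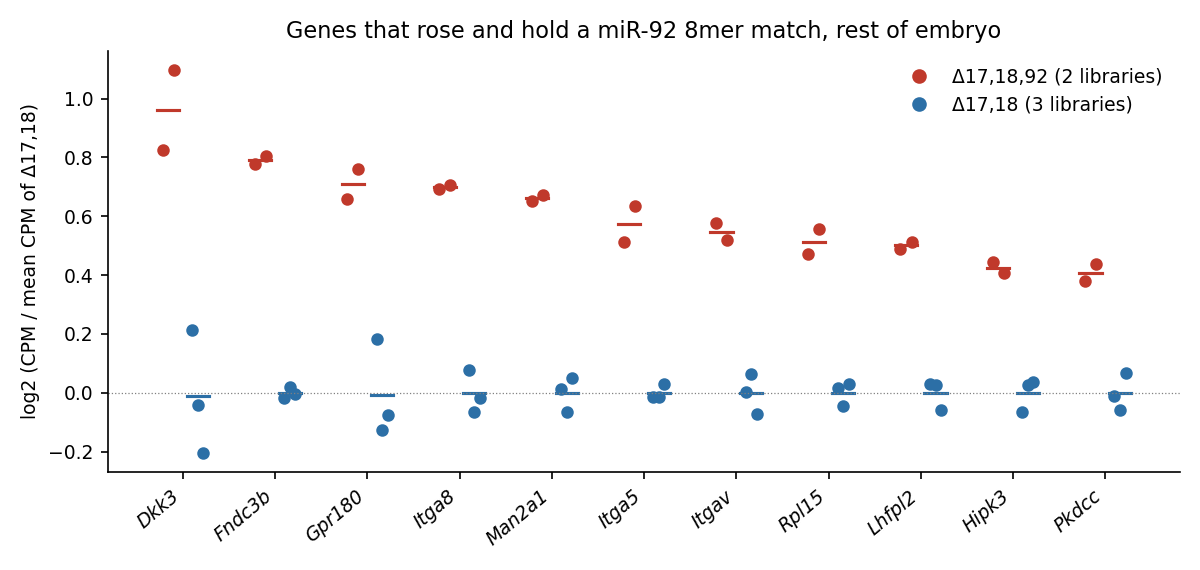
Level in each library relative to the Δ17,18 mean (y axis, log2 ratio of CPM) of 11 of the 12 genes that rose with the smallest p and hold a miR-92 8mer; points are libraries, bars group means, Δ17,18,92 in red and Δ17,18 in blue. In every gene both Δ17,18,92 points lie above all 3 Δ17,18 points, by the widest margin relative to the spread in Fndc3b.

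The list of 17 genes described as miR-92 family targets was put together with earlier results of these data known, so its direction is not independent evidence. All 17 had a positive log2 fold change, against 8333 of the 17512 genes tested, with a median of 0.18, and 4 rose, against 1.90% of all genes, while 0 fell. Besides Itga5 and Dkk3 these were Nox4, an NADPH oxidase, and Fbxw7, the substrate receptor of a ubiquitin ligase that targets cyclin E. Nox4 had 10.8 and 11.7 CPM in Δ17,18,92 and 4.57, 6.94 and 6.07 CPM in Δ17,18 (0.93 ± 0.16, edgeR adjusted p = 0.000672), a call lost in the Y-expressing libraries alone (adjusted p = 0.102, range over the alternatives 2.20e-10 to 0.102). Fbxw7 had 46.3 and 45.5 CPM in Δ17,18,92 and 41.6, 33.3 and 35.9 CPM in Δ17,18 (0.31 ± 0.07, adjusted p = 0.0104), a call that ended without either Δ17,18,92 library and without Δ17,18 replicate 2 (adjusted p up to 0.109). In wild type Fbxw7 stood at 43.8, 42.9 and 45.0 CPM, between the groups compared, and Nox4 at 6.37, 6.52 and 7.32 CPM. The acetyltransferase gene Kat2b was at 0.46 ± 0.13 (edgeR adjusted p = 0.0578). Bcl2l11, which encodes the pro-apoptotic BIM, was at 0.04 ± 0.06 (0.827), with 77.9 and 74.9 CPM in Δ17,18,92 and 77.1, 72.5 and 73.5 CPM in Δ17,18. The groups overlapped in Bcl2l11, whose 3′ UTR also holds miR-17 and miR-19 matches. Between the same genotypes Bcl2l11 rose in tail bud (0.23 ± 0.05, edgeR adjusted p = 0.0266) and was at 0.18 ± 0.09 in heart (0.370). In Δ92 against wild type it was at 0.19 ± 0.05 (0.0791).

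The host transcript Mir17hg (chromosome 14) was itself higher when miR-92a-1 was deleted. It stood at 453 and 494 CPM in Δ17,18,92, against 312, 279 and 287 CPM in Δ17,18 (log2 fold change 0.70 ± 0.06, 1.62-fold, edgeR adjusted p = 5.25e-09). In Δ92 it stood at 205, 194 and 225 CPM, against 154, 161 and 159 CPM in wild type (0.40 ± 0.05, adjusted p = 5.14e-05). The difference between these 2 effects, 0.30 ± 0.08, did not pass the threshold (adjusted p = 0.167). Among the other genotypes it averaged 441 CPM in the full knockout, 302 CPM in Δ17, 241 CPM in Δ19 and 162 CPM in Δ18, against 158 CPM in wild type (n = 3 each). The count table does not say which bases of the transcript were counted, so the level does not check the labels.

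On chromosome 14, 23 of 566 tested genes changed (4.06%, Mir17hg included), against 2.52% of all genes, 3.84% on chromosome 16 and 3.82% on chromosome 1, and 18 of the chromosome 14 genes did so with the Y-linked covariate. Within 5 Mb of the cluster 5 of 16 tested genes changed: Mir17hg, Gpr180, Tgds (0.37 ± 0.07), Sox21 (−0.36 ± 0.08) and Dzip1 (−0.27 ± 0.07), and no further gene was called out to 20 Mb. Farther away, Phyhip had 1.09 and 1.08 CPM in Δ17,18,92 and 3.52, 3.96 and 3.48 CPM in Δ17,18 (−1.75 ± 0.27, edgeR adjusted p = 0.000119). Esd, a serine hydrolase, had 49.5 and 54.1 CPM in Δ17,18,92 and 40.4, 29.4 and 39.3 CPM in Δ17,18 (0.52 ± 0.09, adjusted p = 0.000672). Phyhip also fell in tail bud (−1.84) and heart (−3.20), and Esd rose in tail bud (0.58) and heart (0.54), while in Δ92 against wild type they were at −0.18 (adjusted p = 0.926) and −0.07 (0.890). Gpr180, which lies 3.09 Mb from the cluster, likewise rose in tail bud (0.73) and heart (0.62), and was at 0.17 ± 0.07 (adjusted p = 0.507) in Δ92. The genes of the chromosome 14 sentences other than Mir17hg, Rpl15 and Gpr180 were picked after their values had been seen.

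The 12 largest increases by fold, taken where the groups were separated and log2 CPM averaged 2 or more, were led by Postn, Ankrd1, Dkk3 and Col1a1. Postn, the matricellular protein periostin, had 239 and 268 CPM in Δ17,18,92 and 134, 119 and 92.8 CPM in Δ17,18 (log2 fold change 1.13 ± 0.26, edgeR adjusted p = 0.0286). Ankrd1, an ankyrin repeat protein of striated muscle, had 16.0 and 21.2 CPM in Δ17,18,92 and 9.13, 9.12 and 8.49 CPM in Δ17,18 (1.06 ± 0.23, adjusted p = 0.0183). Col1a1, a chain of type I collagen, had 688 and 697 CPM in Δ17,18,92 and 378, 374 and 337 CPM in Δ17,18 (0.93 ± 0.23, adjusted p = 0.0465). Postn, Ankrd1 and Col1a1 hold no miR-92 8mer, though Col1a1 holds a 7mer-m8. Their adjusted p lies near the threshold although the groups are well apart. In wild type Postn stood at 147, 158 and 163 CPM, between the groups compared. Wild-type Ankrd1 (8.11, 9.67 and 8.05 CPM) and Col1a1 (360, 400 and 339 CPM) overlapped Δ17,18.

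The proteoglycan gene Lum followed at 0.91 ± 0.22, then the secreted proteins Adamtsl1 (0.85 ± 0.19, with an 8mer), Prss35 (0.85 ± 0.20) and Dkk2 (0.79 ± 0.19, with an 8mer), the nucleoporin-like gene Nup62cl (0.81 ± 0.16) and the nucleotidyltransferase gene Tent5a (0.80 ± 0.16). Dkk3, Nox4 and Fndc3b complete the 12. Wild-type Lum stood at 50.5, 51.1 and 51.1 CPM, between Δ17,18,92 (69.7 and 78.1 CPM) and Δ17,18 (39.4, 43.1 and 35.1 CPM). Dkk3 and Fndc3b kept their calls in all 12 alternatives. In the Y-expressing libraries alone 9 of the 12 calls ended, those of Postn, Ankrd1, Col1a1, Lum, Adamtsl1, Prss35, Dkk2, Tent5a and Nox4, and with the Y-linked covariate 5 ended, those of Postn, Col1a1, Lum, Prss35 and Dkk2. Their log2 fold changes stayed above 0 in all 12 alternatives, for example at 0.85 or more in Ankrd1, 0.79 or more in Lum, 0.75 or more in Adamtsl1 and 0.61 or more in Tent5a. All but Dkk3, Fndc3b and Nox4 ended without Δ17,18,92 replicate 2, and those of Postn, Ankrd1, Col1a1, Lum, Prss35 and Dkk2 also ended without Δ17,18 replicate 2 and without Δ17,18 replicate 3. Ankrd1, Col1a1, Lum and Dkk2 ended without Δ17,18 replicate 1, and Postn, Col1a1, Lum and Adamtsl1 without Δ17,18,92 replicate 1. Over these alternatives Postn stayed at or above 1.01 with adjusted p up to 0.28, and Col1a1 between 0.89 and 0.97 with adjusted p up to 0.366. Of the cardiomyocyte list, 13 of 14 tested members were above 0 with a median of 0.56, only Nppa, atrial natriuretic peptide, passed (1.78 ± 0.48, adjusted p = 0.0376, ended without Δ17,18,92 replicate 2, without any 1 Δ17,18 library, with the Y-linked covariate and in the Y-expressing libraries alone), and its summed level was 485 and 707 CPM in Δ17,18,92 against 475, 355 and 348 CPM in Δ17,18. Replicate 1 of Δ17,18,92 was thus near replicate 1 of Δ17,18 on that sum, whereas Postn and Col1a1 were high in both Δ17,18,92 libraries. The part of these cardiomyocyte markers in the increases of Postn, Ankrd1 and Col1a1 was not tested. Nppa was near the floor, at 0.962 and 1.46 CPM in Δ17,18,92 and 0.397, 0.388 and 0.236 CPM in Δ17,18.

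The decrease with the smallest p was in En2, a homeobox gene of the midbrain and anterior hindbrain. It had 12.8 and 14.7 CPM in Δ17,18,92, against 29.3, 27.2 and 27.3 CPM in Δ17,18 (log2 fold change −1.02 ± 0.10, 0.494-fold, edgeR adjusted p = 4.16e-08). In Δ92 it stood at 23.4, 22.4 and 20.6 CPM, against 16.5, 21.7 and 18.8 CPM in wild type, and in Δ17,18 it was above every wild-type library. En2 has no miR-92 match in its 3′ UTR, and its call held in all 12 alternatives. Pax5, which acts with En2 at the boundary of midbrain and hindbrain, had 4.28 and 4.99 CPM in Δ17,18,92 and 9.58, 7.29 and 8.49 CPM in Δ17,18 (−0.86 ± 0.15, adjusted p = 0.00117), a call lost in the Y-expressing libraries alone, where it was at −0.64 (adjusted p = 0.148).

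Hes3, a repressor of neuronal differentiation expressed at the same boundary, had 5.55 and 5.82 CPM in Δ17,18,92 and 12.3, 10.2 and 9.73 CPM in Δ17,18 (−0.92 ± 0.20, edgeR adjusted p = 0.0109), a call that ended without either Δ17,18,92 library and in the Y-expressing libraries alone (adjusted p up to 0.165). The homeobox gene Gbx1 had 4.90 and 2.50 CPM in Δ17,18,92 and 6.75, 6.32 and 6.66 CPM in Δ17,18 (−0.83 ± 0.19, adjusted p = 0.0100), a call that ended without Δ17,18,92 replicate 2, its lowest library, in the Y-expressing libraries alone and with only the 5 libraries compared (adjusted p up to 0.577). Other genes of this region were looked up after these values had been seen. Among 13 in all, 5 fell, against 0.622% of all genes tested, and 0 rose, but 4 of the 5 are the decreases that prompted the search. The other was Pax2 (−0.67 ± 0.16, edgeR adjusted p = 0.0135), and En1 stood at −0.44 ± 0.15 (0.111) with separated groups. Pax8 (−0.489, 0.286), Fgf17 (−0.302, 0.420) and Gbx2 (−0.235, 0.364) also had separated, lower groups without a call. The median of the 13 was −0.443, and 2 of them lay above 0. Wnt1 (−0.37 ± 0.17, 0.308), Fgf8 (−0.15 ± 0.15, 0.721), Otx2 (0.05 ± 0.09, 0.847) and Lmx1b (0.01 ± 0.08, 0.975) had overlapping groups. Beside these, 14 of the 15 tested neural progenitor and neuron markers lay below 0, with a median of −0.16 and no call, and their summed level was 819 and 623 CPM in Δ17,18,92 against 777 to 848 CPM in Δ17,18. Only replicate 2 of Δ17,18,92 was below Δ17,18 on that sum, whereas En2, Pax5 and Hes3 were low in both. The part of these neural markers in the decreases was not tested.

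All 11 primitive erythroid genes measured were lower in both Δ17,18,92 libraries than in all 3 Δ17,18 libraries, against 17.2% of all genes, with a median log2 fold change of −0.83. Their summed level was 2317 and 2239 CPM in Δ17,18,92, against 2889, 5168 and 3936 CPM in Δ17,18. Only Klf1, a transcription factor of red cells, passed the test (3.76 and 4.04 CPM in Δ17,18,92, 6.90, 9.04 and 7.37 CPM in Δ17,18; −1.003 ± 0.217, edgeR adjusted p = 0.0104), and that call ended without either Δ17,18,92 library and without Δ17,18 replicate 2 (adjusted p up to 0.143). The embryonic globin gene Hbb-bh1 had 613 and 648 CPM in Δ17,18,92 and 875, 1412 and 1080 CPM in Δ17,18 (−0.83, adjusted p = 0.108). In bulk samples, fewer cells of a type and less RNA per cell cannot be told apart.

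Among the 12 largest decreases were also Csf2rb, the shared β chain of cytokine receptors (−1.29 ± 0.32), Cited4, a transcriptional co-regulator (−1.08 ± 0.26), the manganese transporter gene Slc30a10 (−0.99 ± 0.25) and Ikzf1, a transcription factor (−0.82 ± 0.22). All had edgeR adjusted p between 0.0323 and 0.0498, and their calls ended without either Δ17,18,92 library and without Δ17,18 replicate 2 or 3, those of Csf2rb and Ikzf1 also without Δ17,18 replicate 1, and those of Csf2rb, Cited4 and Ikzf1 also with the Y-linked covariate. Tmem56 was at −0.90 ± 0.19, the adhesion receptor gene Adgrb1 at −0.76 ± 0.15 and Camk2n2, an inhibitor of CaM kinase II, at −0.70 ± 0.16. In wild type Camk2n2 stood at 4.21, 4.15 and 5.06 CPM, below every Δ17,18 library (7.00, 8.22 and 7.84 CPM). Wild-type Tmem56 stood at 11.0, 13.1 and 10.4 CPM, above both Δ17,18,92 libraries (5.25 and 5.99 CPM). The call of Tmem56 also ended without Δ17,18,92 replicate 1, and that of Camk2n2 without Δ17,18 replicate 2. Without Δ17,18,92 replicate 2, the calls of 10 of the 12 largest decreases ended, all but En2 and Pax5. In the Y-expressing libraries alone 9 ended, all but En2, Klf1 and Tmem56.

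Of 12 endothelial markers, 9 were higher in both Δ17,18,92 libraries than in all Δ17,18 libraries, against 15.9% of all genes, with a median of 0.19 and 2 past the threshold. Tek, the angiopoietin receptor of endothelium, had 55.8 and 65.7 CPM in Δ17,18,92 and 44.9, 39.1 and 39.2 CPM in Δ17,18 (0.57 ± 0.08, edgeR adjusted p = 1.62e-05). Pecam1, a junctional adhesion molecule, had 49.8 and 51.7 CPM in Δ17,18,92 and 39.2, 42.0 and 40.2 CPM in Δ17,18 (0.33 ± 0.07, adjusted p = 0.00607), a call lost without Δ17,18,92 replicate 2 and in the Y-expressing libraries alone (adjusted p up to 0.203). Kdr, the main VEGF receptor, was at 0.17 (0.080) with separated groups, and Cldn5 at −0.0087 (0.984) with overlapping ones. Neither Tek nor Pecam1 holds a miR-92 match. In wild type Tek stood at 49.2, 48.8 and 49.6 CPM, between the groups compared. Wild-type Pecam1, at 38, 35.7 and 38.2 CPM, lay below both groups.

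**Figure D4:**
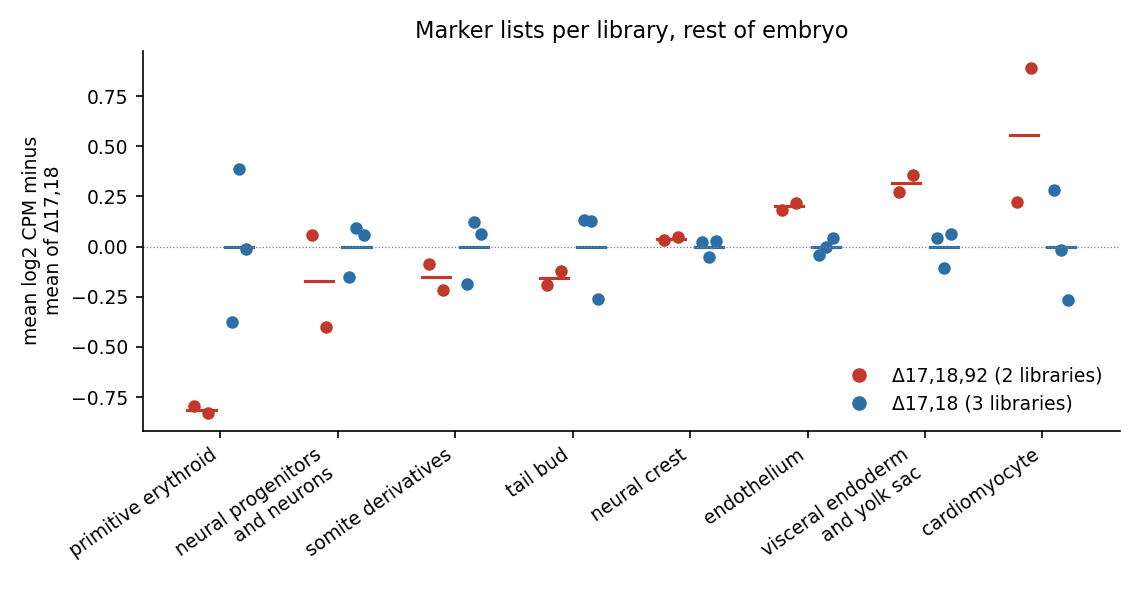
Mean log2 CPM of each marker list minus its Δ17,18 mean (y axis) in each library of the rest of the embryo; points are libraries, bars group means, Δ17,18,92 in red and Δ17,18 in blue. Both Δ17,18,92 libraries lie below all Δ17,18 libraries for primitive erythroid genes and above them for endothelium and for visceral endoderm, and the cardiomyocyte list is set apart mainly by replicate 2.

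The other pathway and tissue lists had between 0 and 3 calls each, against 2.52% of all genes. Of 27 TGF-β and BMP signalling genes, 1 rose and 0 fell, with a median of 0.01: Tgfbr3, the co-receptor betaglycan, stood at 0.33 ± 0.07 (edgeR adjusted p = 0.00373), a call that ended without Δ17,18,92 replicate 2 and in the Y-expressing libraries alone (adjusted p up to 0.178). Of 26 cell cycle genes and E2F targets, 1 rose, Ccne2 (cyclin E2, 0.31 ± 0.06), and 2 fell, Ccnd1 (cyclin D1, −0.21 ± 0.05) and the replication licensing factor Cdt1 (−0.24 ± 0.06), with a median of −0.05. Of these 26 genes 5 were above 0, and 12 were lower in both Δ17,18,92 libraries than in all Δ17,18 libraries, against 17.2% of all genes. Their summed level was 5735 to 6017 CPM in Δ17,18,92, against 6132 to 6170 CPM in Δ17,18. In Δ17,18,92 Cdt1 stood at 117 and 116 CPM, against 141, 138 and 133 CPM in Δ17,18 and 117, 125 and 119 in wild type. Ccnd1 had 357 and 327, then 389, 398 and 396, then 329, 332 and 315 CPM in that order. Ccne2 had 87.4 and 91.4, then 72.2, 69.6 and 75.2, then 69.0, 68.8 and 69.8 CPM. Every Δ17,18 library lay above every wild-type library in Ccnd1 and Cdt1, and every Δ17,18,92 library did so in Ccne2. The calls of Ccne2, Ccnd1 and Cdt1 ended without Δ17,18,92 replicate 2, those of Ccnd1 and Cdt1 also without Δ17,18 replicate 2, and that of Cdt1 also without Δ17,18,92 replicate 1 or Δ17,18 replicate 1. In the Y-expressing libraries alone the calls of Ccnd1 and Cdt1 ended, and with the Y-linked covariate that of Cdt1. Of 33 tested Hox genes 1 fell, Hoxa2 (−0.32 ± 0.09, adjusted p = 0.0498), a call lost in 11 of 12 alternatives, with a list median of −0.10. Of 12 neural crest genes 1 rose, Snai2 (0.33 ± 0.09, adjusted p = 0.0340), a call that ended without either Δ17,18,92 library and without Δ17,18 replicate 1 or 3. Of 13 immediate early and stress genes 1 fell, Hspa1b (−1.21 ± 0.34, adjusted p = 0.0466), a heat shock gene with a near-identical copy, whose call ended without either Δ17,18,92 library, without Δ17,18 replicate 3, with only the 5 libraries compared and with the replicate block. The calls of Snai2 and Hspa1b also ended with the Y-linked covariate and in the Y-expressing libraries alone. Hspa1b was low, at 0.831 and 0.832 CPM in Δ17,18,92 and 1.49, 1.36 and 3.13 CPM in Δ17,18. Wild-type Hspa1b stood at 0.948, 0.958 and 0.782 CPM, below every Δ17,18 library.

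Besides the neural and sex-linked lists, no member passed among 16 p53 targets (median −0.03), 18 genes of cholesterol synthesis with the LDL receptor (0.07), 15 of hypoxia and glycolysis (0.0038), 14 tail bud markers (−0.17), 11 somite derivatives (−0.15) and 12 visceral endoderm and yolk sac markers (0.40). In the last of these 7 genes were higher in both Δ17,18,92 libraries than in all Δ17,18 libraries, against 15.9% of all genes, with a summed level of 63.1 and 67.8 CPM in Δ17,18,92 against 48.8 to 55.3 CPM in Δ17,18. Of the other locus genes, Gpc6 was at 0.14 (adjusted p = 0.192), Gpc5 at −0.16 (0.906) and Mcm7, the host of miR-25, at −0.06 (0.532). None of the 5 sex-linked genes passed (median 1.5), their levels following the pattern given above.

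Loss of miR-92a-1 alone, in Δ92 against wild type, shares no library with the comparison above and asks whether the state of miR-17 and miR-18 bears on the effect. In Δ92 103 of 17512 genes changed (0.588%), 94 higher (0.537%) and 9 lower (0.0514%), and 67 without wild-type replicate 3. Of the 8mer genes 47 of 394 rose and 0 fell, with a median of 0.11, against the 82 higher and the median of 0.12 on the Δ17,18 background. Genes with no match of the 4 seeds had medians of 0.0025 in Δ92 and −0.0132 on the Δ17,18 background. The site score averaged 0.0826 in Δ92 against 0 in wild type, and 0.141 in Δ17,18,92 against −0.021 in Δ17,18. Whether the backgrounds differ in these class medians or scores was not tested. Of the genes that rose, 72 did so in both, which is 21.7% of the 332 on the Δ17,18 background and 76.6% of the 94 in Δ92. Of the 109 that fell on the Δ17,18 background 1 also fell in Δ92, and 52 had the same sign there. Among the 82 8mer genes that rose on the Δ17,18 background, 81 were also above 0 in Δ92, at a median of 0.22 there against 0.34 here. The 82 were picked by their rise here, which raises their median here. This gap therefore does not measure a difference between the backgrounds. Δ92 libraries were all Xist-expressing, while wild type had 2 Y-expressing and 1 Xist-expressing library, so the sex pattern runs the other way in that comparison.

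Among single 8mer genes, picked by their smallest p on the Δ17,18 background, some had nearly the same value on both backgrounds and others a larger one on the Δ17,18 background. That choice favours larger values on the Δ17,18 background. Fndc3b was at 0.79 ± 0.05 on the Δ17,18 background and 0.73 ± 0.04 in Δ92, Man2a1 at 0.67 ± 0.05 and 0.65 ± 0.05, and Pkdcc at 0.41 ± 0.05 and 0.42 ± 0.04 in the same order. Dkk3 was at 0.97 ± 0.10 on the Δ17,18 background and 0.61 ± 0.10 in Δ92, Itga8 at 0.70 ± 0.07 and 0.49 ± 0.07, Lhfpl2 at 0.50 ± 0.06 and 0.30 ± 0.05, and Hipk3 at 0.42 ± 0.05 and 0.25 ± 0.05, and none of these differences passed the threshold. The difference in Gpr180, 0.54 ± 0.11, did not pass either (edgeR adjusted p = 0.0641). Gpr180 stood at 32.8, 29 and 31.7 CPM in Δ92 and 27.2, 28.3 and 27.5 CPM in wild type, above every Δ17,18 library. The test of the difference itself found 3 of 17512 genes (0.0171%; 1 with a higher effect, 0.00571%, and 2 with a lower one, 0.0114%; 1755 at an unadjusted p under 0.05, and 46 with DESeq2). En2 differed by −1.23 ± 0.13 (edgeR adjusted p = 3.08e-06). Cd59a, an inhibitor of complement on the cell surface, differed by −1.46 ± 0.26 (0.0288): it had 3.10 and 4.45 CPM in Δ17,18,92 and 4.71, 4.73 and 4.84 CPM in Δ17,18, but 9.96, 7.89 and 8.17 CPM in Δ92 and 4.00, 3.97 and 3.87 CPM in wild type. Zim1, an imprinted zinc finger gene that holds a miR-92 8mer, differed by 0.56 ± 0.10 (0.0288), with 60.6 and 62.3 CPM in Δ17,18,92 and 44.4, 44.3 and 43.2 CPM in Δ17,18, and 43.7, 50.3 and 48.8 CPM in Δ92 and 48.9, 49.7 and 52.2 CPM in wild type. The En2 difference held in every alternative, and those of Cd59a and Zim1 did not: without single libraries the count ran from 1 to 16, being 16 without Δ17,18,92 replicate 1, 13 without wild-type replicate 2, 8 without Δ17,18 replicate 1 or Δ92 replicate 3, 5 without Δ92 replicate 2, and 1, En2, without Δ92 replicate 1 or wild-type replicate 1 or 3.

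**Figure D5:**
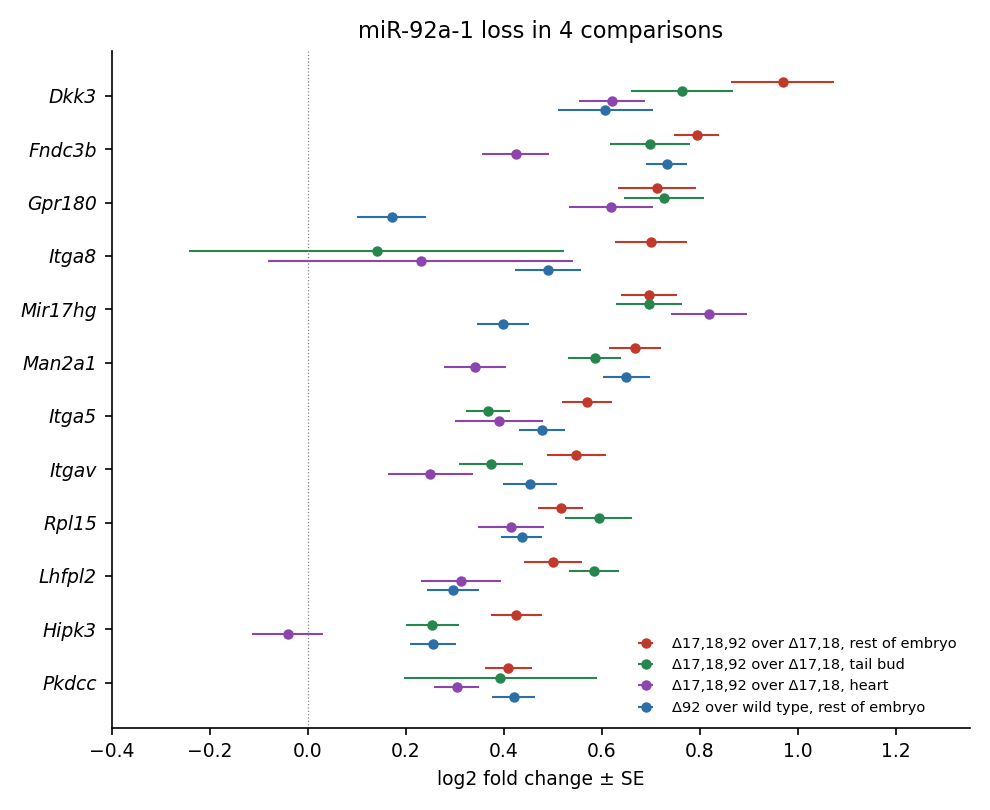
Log2 fold change ± SE (x axis) of Mir17hg and 11 of the 12 miR-92 8mer genes with the smallest p for Δ17,18,92 over Δ17,18 in rest of embryo, tail bud and heart, and for Δ92 over wild type in rest of embryo. Most points lie to the right of 0 in all 4; in heart Hipk3 lies at −0.04 and most of the others lie left of their value in the rest of the embryo, and Itga8 has wide errors outside it.

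In tail bud the same genotypes gave 114 changed genes of 17009 (0.670%), 94 higher (0.553%) and 20 lower (0.118%), with a median of 0.11 over the 8mer genes and 50 of 389 higher. In heart 116 of 16750 changed (0.693%), 80 higher (0.478%) and 36 lower (0.215%), with a median of 0.05 over the 8mer genes, 27 of 382 higher and 1 lower. The tail bud count was 55 to 64 without Δ17,18,92 replicate 2 or 3 or Δ17,18 replicate 2 or 3. The heart count was 377 without Δ17,18 replicate 1, 222 without Δ17,18,92 replicate 1, 65 and 50 without Δ17,18,92 replicates 3 and 2, and 61 and 31 without Δ17,18 replicates 3 and 2. Of the 332 genes that rose in the rest of the embryo 70 also rose in tail bud (21.1% of the 332, 74.5% of the 94) and 41 in heart (12.3% of the 332, 51.2% of the 80). Of the 109 that fell, 7 also fell in tail bud and 7 in heart (6.42% each). Where tested, 101 lay below 0 in tail bud (median −0.205) and 82 in heart (median −0.152). Of all genes tested, 48.4% lay above 0 in tail bud and 49.3% in heart.

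The test of the difference between tissues found 0 of 18875 genes against tail bud (edgeR; 506 at an unadjusted p under 0.05, 0 with DESeq2) and 7 against heart (0.0371%; 6 with a higher effect, 0.0318%, and 1 with a lower one, 0.0053%; 1471 at an unadjusted p under 0.05, 47 with DESeq2). Against heart, Vcan, the matrix proteoglycan versican, rose in the rest of the embryo (857 and 843 CPM in Δ17,18,92, 699, 674 and 700 CPM in Δ17,18; 0.30 ± 0.04, edgeR adjusted p = 2.00e-05) and was at −0.31 ± 0.13 in heart (0.251), a difference of 0.57 ± 0.12 (0.0473). In wild type Vcan stood at 759, 757 and 781 CPM in the rest of the embryo, between the groups compared. The adhesion gene Sdk1 (difference 0.70 ± 0.14), 4932438A13Rik (0.60 ± 0.12), Hipk3 (0.44 ± 0.09), Cacna1d (0.82 ± 0.17) and Ttn (3.10 ± 0.64) likewise had a more positive effect in the rest of the embryo than in heart, and Uggt2 a more negative one (−0.58 ± 0.12). These 7 calls sit at adjusted p between 0.0473 and 0.0497, and the count was 0 without any 1 of the 3 Δ17,18 rest-of-embryo libraries, 0 without Δ17,18,92 rest-of-embryo replicate 2 and 0 without Δ17,18,92 heart replicate 2. It was 2 without Δ17,18,92 rest-of-embryo replicate 1 or Δ17,18 heart replicate 2, 11 and 14 without Δ17,18,92 heart replicates 3 and 1, and 41 without Δ17,18 heart replicate 1. Which embryos the tissues share is not given in the sources used here.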

How the data were processed

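RNA was extracted in TRIZOL and sequenced as single reads of 50 bases, per the labels' protocols. The authors deposited raw read counts per Ensembl gene for 37620 genes and 71 libraries; the submitters' processing notes name STAR 2.3.0, SAMtools 0.1.14, featureCounts of Subread 1.4.2 and the mm9 and NCBIM37 builds. The handling of multi-mapping reads and strand is not given in the sources used here. All 37 mitochondrial genes were listed at 0.

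Groups came from the sample titles. The 23 rest-of-embryo libraries entered 1 edgeR fit (version 4.0.16 under R 4.3.3; low counts filtered per group by filterByExpr, TMM, robust quasi-likelihood, Benjamini-Hochberg over all tested genes, threshold 0.05), and tail bud and heart likewise. Differences between backgrounds came from the rest-of-embryo fit, and differences between tissues from 1 fit of all 71 libraries. SE is the log2 fold change divided by the square root of the F statistic. On data simulated for the main comparison (17286 genes), 47.8% of the smallest, 1.25-fold, changes and 100% of the 2-fold changes were recovered. Changes were put only into genes above a CPM floor, with the same mean in all other genotypes. Recovery in genes with low counts was therefore not measured. CPM were computed here from TMM-scaled totals and are not divided by gene length. The p-values measure the spread between these libraries only.

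GENCODE (GRCm38) supplied symbols for 32897 gene IDs and 3′ UTRs for 19757 genes. Its build is later than the authors', so positions are those of GRCm38 and no counts were placed by them. Genes without a symbol held up to 0.70% of counts in the rest of the embryo.

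Members and lists were chosen with earlier results of these data known. Genes were named by a rule: Mir17hg; up to 12 per direction with the largest change, called, with separated groups and log2 CPM averaging 2 or more; up to 12 that rose and up to 3 that fell with a miR-92 8mer, by smallest p; up to 4 called members per list, or the 1 with the smallest p; all members of the miR-92 target list; and up to 4 per test of a difference. Integrin, midbrain and hindbrain, and chromosome 14 genes, and other list members with values in the text, were added after their values had been seen. The 18 lists were the 17 miR-92 family targets, 4 locus genes, TGF-β and BMP signalling, cholesterol synthesis and LDL receptor, Hox genes, p53 targets, immediate early and stress genes, hypoxia and glycolysis, cell cycle with E2F targets, sex-linked genes, and markers of neural crest, somite derivatives, tail bud, cardiomyocytes, endothelium, neural cells, primitive erythroid cells and visceral endoderm with yolk sac. Alternatives were DESeq2 1.42.0, RLE size factors, no filter on low counts, only the groups compared, the replicate block, a covariate of mean log2 CPM of 4 Y-linked genes, and leaving out each library. A further alternative, chosen after seeing the data, kept the Y-expressing libraries alone in the groups compared, beside all libraries of the other genotypes. Some genes that the rule names are not reported here.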

Additional observations from a re-analysis of the deposited data

Results flagged for a closer look

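The first 3 results were singled out because the effect of miR-92a-1 loss in the rest of the embryo differed between the Δ17,18 and the wild-type background in a test of the difference itself. En2 differed by −1.23 on the log2 scale, at −1.02 ± 0.10 on the Δ17,18 background and 0.21 ± 0.09 on the wild-type background. Cd59a differed by −1.46, at −0.33 ± 0.20 and 1.14 ± 0.17 in the same order, and Zim1 by 0.562, at 0.48 ± 0.07 and −0.08 ± 0.07. With the Y-linked covariate En2 kept its call (−1.12, edgeR adjusted p = 0.000296), while Cd59a (−1.63, 0.0550) and Zim1 (0.51, 0.365) did not. The part of the sex pattern, which runs in opposite directions on the 2 backgrounds, was not tested further.

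The other 4 results were singled out because the effect on the Δ17,18 background differed between the rest of the embryo and heart. Sdk1 differed by 0.697, at 0.49 ± 0.10 in the rest of the embryo and −0.24 ± 0.10 in heart. Uggt2 differed by −0.577, at 0.10 ± 0.06 in the rest of the embryo and 0.66 ± 0.09 in heart. The gene 4932438A13Rik differed by 0.597, at 0.24 ± 0.05 in the rest of the embryo and −0.38 ± 0.08 in heart, and Vcan by 0.574, at 0.30 ± 0.04 and −0.31 ± 0.13 in the same order. All 4 have edgeR adjusted p = 0.0473, and with the Y-linked covariate adjusted p = 0.0663.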

How the results depend on the processing

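On the Δ17,18 background the 441 calls became 581 with DESeq2, 465 with RLE size factors, 639 with only the 5 libraries compared, 952 without a filter on low counts, 274 with the Y-linked covariate, 127 in the Y-expressing libraries alone, and 99 to 365 without 1 library. The median of the 8mer genes (0.118) was 0.141 without matches of the other 3 families, 0.07 with 7mer-m8 matches added, 0.134 in the Y-expressing libraries, 0.111 with the Y-linked covariate and 0.11 to 0.131 without 1 library, and it stayed above 0 in each. For Δ92 against wild type (103) the count was 328 without the filter, 64 with the covariate and 67 to 76 without 1 library. For the difference between backgrounds (3) it was 46 with DESeq2, 299 without the filter, 12 with only the groups compared, 1 with the covariate and 1 to 16 without 1 library. Tail bud (114) gave 202 with DESeq2, 181 with only the groups compared and 55 to 113 without 1 library. Heart (116) gave 295 with DESeq2, 888 without the filter, 13 with only the groups compared and 31 to 377 without 1 library. The difference from heart (7) was 47 with DESeq2, 2 without the filter, 3 with only the groups compared, 0 with the covariate and 0 to 41 without 1 library. The cause of these shifts was not tested.

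Deviations of same-numbered libraries of Δ17,18,92 and Δ17,18 had correlations of −0.0891 and −0.0937 over 2 pairs. With only 2 Δ17,18,92 libraries their deviations from the mean mirror each other, so these values cannot decide whether numbers mark pairs. The numbers were not treated as pairs in the main fit. The replicate block gave 523 calls on the Δ17,18 background, 8 for the difference between backgrounds and 0 for the difference from heart. Of 73 named genes 50 were past the threshold, and 17 stayed there in every alternative. Xist turned to 0.136 with the Y-linked covariate and to 0.0715 in the Y-expressing libraries, and Mylip was at −0.0292 to 0.15 without 1 library; neither passed the threshold.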
